A study of Mus musculus with 8 samples.

Results

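The 8 genes of fat hydrolysis and its control were examined in the liver, chosen by symbol from the 17810 genes listed in the deposited counts: the lipases Lipe, Mgll, Lipa, Lipg and Pnpla3, the lipase co-activator Abhd5, and the secreted lipase inhibitors Angptl4 and Angptl8. All 8 were listed, and 7 had enough counts to be tested. Pnpla3 did not pass the filter on low counts and is described without a test. The libraries came from 4 WT and 4 *HKO* male littermates, 5 months old, which had been switched at 8 weeks of age to a high-fat diet without added choline (CD-HFD), were kept on it for 3 months and were fasted before the livers were taken. *HKO* mice (genotype AlbCRE in the labels) carry loxP-flanked miR-33 alleles with a Cre transgene under the albumin promoter, which is active in hepatocytes, so the other cells of the liver are not the intended target. Whether WT mice carried loxP-flanked alleles without Cre is not given in the sources used here. Both genotypes shared the diet, the fast and perfusion with PBS, and each library is 1 liver.

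Triglyceride stored in lipid droplets is hydrolysed in steps. Adipose triglyceride lipase (gene Pnpla2), switched on by ABHD5 and held back by G0S2, removes the first fatty acid, hormone-sensitive lipase (Lipe) acts mainly on the diacylglycerol that remains, and monoacylglycerol lipase (Mgll) releases the last fatty acid and glycerol. Lysosomal acid lipase (Lipa) hydrolyses cholesteryl esters and triglycerides delivered to lysosomes, and endothelial lipase (Lipg) is secreted and acts mainly on HDL phospholipids. ANGPTL4 and ANGPTL8 are secreted proteins that inhibit lipoprotein lipase, the enzyme that unloads triglyceride from lipoproteins in blood capillaries.

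The libraries held between 12174339 and 18735785 estimated counts, and 3 counts corresponded to 0.149 to 0.255 CPM (counts of a gene per 1000000 counts of its library, after TMM scaling), a floor that covers counting error only. Log2 fold changes are *HKO* against WT, so a negative value is lower in *HKO*. A gene was called when the adjusted p of edgeR's quasi-likelihood test, by the Benjamini-Hochberg method over all 12395 tested genes, was under 0.05. The order of the libraries in the column names ran through the *HKO* livers and then the WT livers, so library order and genotype cannot be told apart. Mir33 itself was not analysed here, and the genotypes were taken from the labels. In whole liver, fewer cells of a type and less RNA per cell cannot be told apart.

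The sequence targeted in *HKO* hepatocytes is that of miR-33, a microRNA that pairs with the 3′UTR of its targets mainly through its seed, bases 2 to 8. The mature mouse form (RefSeq, GRCm38.p6, chr15:82198127-82198147, plus strand) is shown first, 5′ to 3′, with the seed in capitals. Below it are 30 bases around 2 of the matches in the 3′UTR of Abca1, an established miR-33 target shown as a reference, and around the closest match in any of the 8 genes (GENCODE vM21, GRCm38), with the matching letters in capitals.
mmu-miR-33-5p: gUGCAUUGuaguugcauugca
Abca1, chr4:53033790-53033819, minus strand: ctgacactattCAATGCAAtgcacttcaat
Abca1, chr4:53033775-53033804, minus strand: gcaatgcacttCAATGCAAcgagaacacaa
Lipa, chr19:34492972-34493001, minus strand: tttcatgttttAATGCAttagcttcctagt
A match was CAATGCA or AATGCAA in the longest annotated 3′UTR, on the transcript strand, and 16.3% of 11528 tested genes with at least 50 bases of 3′UTR had one. Of the 8 genes, 0 had one, with 3′UTRs from 121 bases (Pnpla3) to 2584 bases (Mgll). The only shorter match was the 6 bases AATGCA in Lipa, at base 990 of its 1662. The absence of these letters says nothing of matches outside this window.

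RefSeq promoter windows, 250 bases before to 50 after the start, are described for 6 of the 8 genes. The window of Lipg was left out of the search, and none was found for Angptl4. The windows of Mgll and Lipa, both lower in *HKO* livers, and of Angptl8, which had the opposite direction, are shown on the gene's strand with motif matches in capitals (GRCm38.p6).
Mgll, chr6:88724162-88724461, plus strand: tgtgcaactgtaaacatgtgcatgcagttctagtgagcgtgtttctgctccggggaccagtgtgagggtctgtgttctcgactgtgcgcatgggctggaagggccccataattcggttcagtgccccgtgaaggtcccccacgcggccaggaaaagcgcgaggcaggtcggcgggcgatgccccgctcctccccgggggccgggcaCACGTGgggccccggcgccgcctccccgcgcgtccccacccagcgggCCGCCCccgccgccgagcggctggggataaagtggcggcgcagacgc
Lipa, chr19:34527425-34527724, minus strand: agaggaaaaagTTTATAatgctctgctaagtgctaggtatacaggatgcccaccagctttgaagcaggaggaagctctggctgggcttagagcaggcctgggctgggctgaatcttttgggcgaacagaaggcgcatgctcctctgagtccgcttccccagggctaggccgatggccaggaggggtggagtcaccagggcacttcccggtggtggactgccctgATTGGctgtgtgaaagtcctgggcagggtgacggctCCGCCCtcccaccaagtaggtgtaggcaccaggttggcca
Angptl8, chr9:21835260-21835559, plus strand: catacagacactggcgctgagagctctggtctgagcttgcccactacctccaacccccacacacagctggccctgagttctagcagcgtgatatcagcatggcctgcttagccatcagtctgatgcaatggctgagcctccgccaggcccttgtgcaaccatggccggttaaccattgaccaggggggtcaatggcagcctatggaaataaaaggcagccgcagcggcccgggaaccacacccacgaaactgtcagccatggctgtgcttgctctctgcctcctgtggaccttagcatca
The motifs searched on both strands were the E-box CACGTG, the nuclear receptor element AGGTCA, the GC box GGGCGG, the CCAAT box, TATAAA and TCACCCCA. Mgll had, in the first of its 2 windows, an E-box at -44 from the start, a motif in 7.15% of 32851 promoter windows, and a GC box at 4 bases after it, a motif in 35.7%. Lipa had TATAAA at -239 (13.6% of windows), CCAAT at -26 (37.4%) and a GC box at 11 bases after the start. The Angptl8 window had none of these 6 motifs. Lipe also had an E-box, at -155, in the first of its 2 windows, together with 6 GC boxes, of which 2 overlap. Abhd5 alone had AGGTCA (16.3% of windows), at -69, and TCACCCCA (1.56%) was in none of the windows of the 6 genes.

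Lower expression in *HKO* livers was called for Mgll, Lipa and Lipg, with Mgll and Lipg at close to 2-fold (2.02 for both, WT over *HKO*) and Lipa at 1.56-fold. Lipe was lower on average without passing the threshold, Abhd5 and Angptl4 overlapped between the genotypes, and Angptl8 was higher in each *HKO* liver at an adjusted p of 0.0509. Thus 3 of the 7 tested genes were called lower, beside 3.37% of all tested genes, and 0 were called higher, beside 1.66%. At an unadjusted p under 0.05, edgeR gave 4 lower and 1 higher, beside 2455 of all 12395 tested genes in either direction. DESeq2, which called 8.2% of the genes it tested in either direction, called 4 lower and 1 higher. The limma-voom fit, which called 608 of 12395 genes in either direction, called 3 lower and 0 higher. The genotypes did not overlap in 3 of the 8 genes with *HKO* lower, where 7.19% of tested genes showed this, and in 1 with *HKO* higher, where 5.34% did. The median log2 fold change was -0.64 over the 7 genes and 0.01 over all tested genes.

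**Figure D1:**
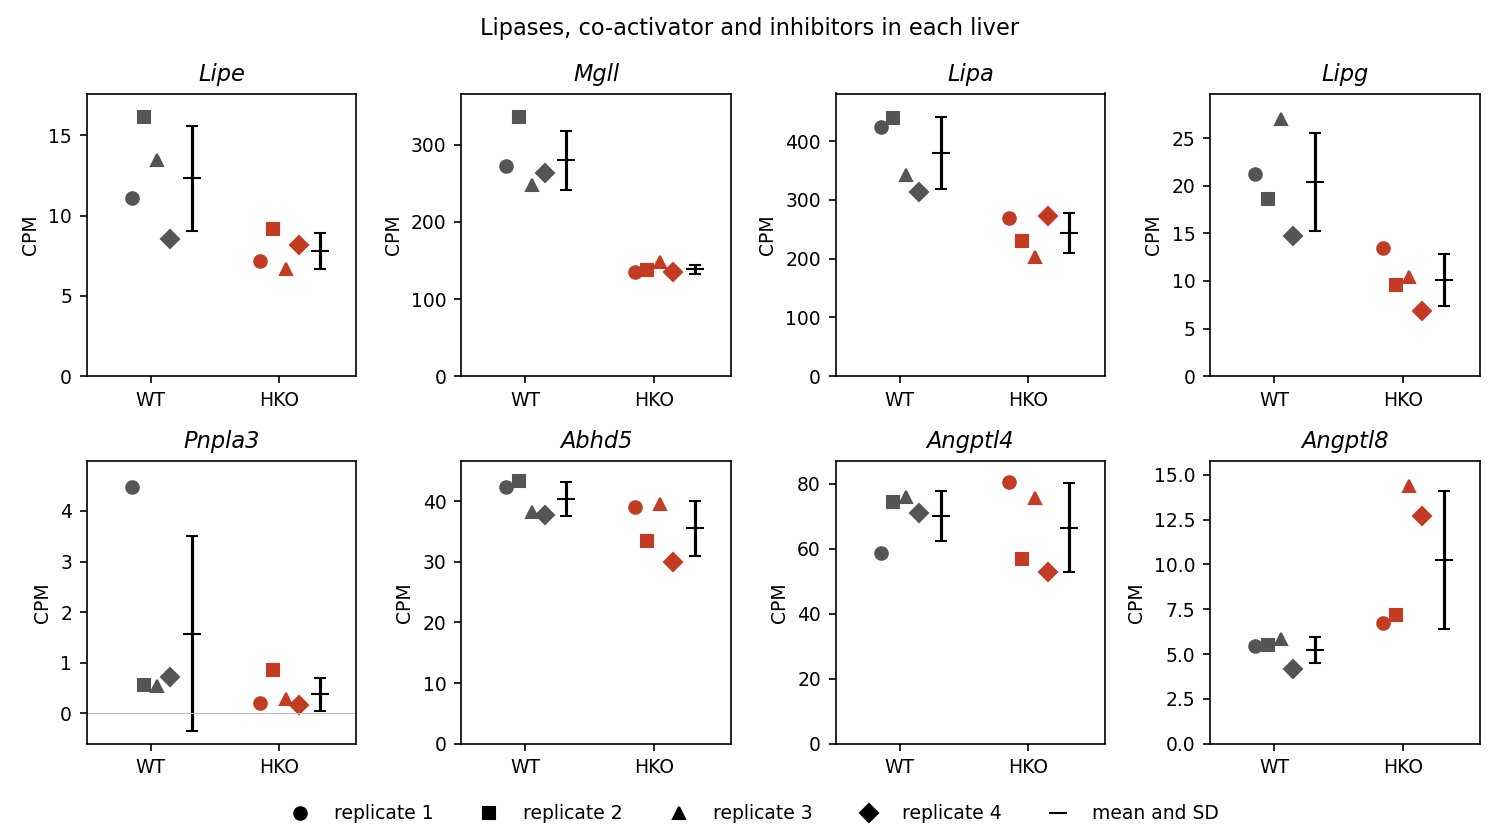
CPM of each of the 8 genes (y axis, linear, 1 panel per gene) in the 4 WT livers (grey) and 4 *HKO* livers (red), with the replicate number as the marker shape and the mean and SD as a bar. All *HKO* livers lie below all WT livers for Mgll, Lipa and Lipg and above them for Angptl8, and 1 WT liver stands far above the rest for Pnpla3.

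Mgll, the enzyme of the last step (chr6:88724412-88828360, plus strand, GRCm38), was 273, 336, 248 and 264 CPM in WT replicates 1 to 4 and 135, 137, 148 and 135 CPM in *HKO* replicates 1 to 4. The lowest WT liver was far above the highest *HKO* liver, and the *HKO* livers were close to each other, with a coefficient of variation of 4.24% against 13.7% in WT. The mean was 280.3 ± 38.4 CPM (n = 4, SD) in the WT group and 139 ± 5.89 CPM (n = 4, SD) in the *HKO* group. The fitted log2 fold change was -1.01 (SE 0.10, 95% interval -1.22 to -0.80, adjusted p = 0.000446), which ranked Mgll 8 by p among all tested genes. It was called in each of the 8 fits that left out 1 liver. Its value was fractional in 5 livers, so some reads were divided between possible origins, which were not traced. The annotated antisense gene Gm26588 overlaps part of the Mgll exons.

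Lipa, the lysosomal enzyme (chr19:34492316-34527474, minus strand), was 424, 440.0, 343 and 314 CPM in WT replicates 1 to 4 and 269, 229.7, 202 and 273 CPM in *HKO* replicates 1 to 4. The groups did not overlap, and WT replicate 4 came closest to the *HKO* livers. The value was fractional in 8 livers, so some reads were divided here too. The mean was 380.3 ± 61.4 CPM (n = 4, SD) in the WT group and 243 ± 33.7 CPM (n = 4, SD) in the *HKO* group. The corresponding log2 fold change was -0.64 (SE 0.13, 95% interval -0.93 to -0.36, adjusted p = 0.0181). The adjusted p was 0.0602 without WT replicate 1 and 0.0705 without WT replicate 2, the livers with the most Lipa, and the call held in the other 6 such fits. Of 17 other lysosomal genes, among them the proteases Ctsb, Ctsd and Ctsl and the membrane protein Lamp1, edgeR called 0 in either direction, with a median log2 fold change of -0.03. At an unadjusted p under 0.05 there were 2 higher and 4 lower, beside 2455 of all 12395 tested genes in either direction. DESeq2 called 1 higher (Ctsl) and 1 lower (Ctsd), beside 8.2% of the genes it tested.

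Lipg, the secreted phospholipase (chr18:74939322-74961263, minus strand), was 21.2, 18.6, 27.0 and 14.7 CPM in WT replicates 1 to 4 and 13.5, 9.57, 10.4 and 6.90 CPM in *HKO* replicates 1 to 4. The lowest WT liver and the highest *HKO* liver were close, and the spread within each genotype was wide. The mean was 20.4 ± 5.15 CPM (n = 4, SD) in the WT group and 10.1 ± 2.72 CPM (n = 4, SD) in the *HKO* group, giving a log2 fold change of -1.01 (SE 0.22, 95% interval -1.51 to -0.51, adjusted p = 0.0319). The same fold as for Mgll was thus measured with an interval more than 2 times as wide. The call held without WT replicate 4 and without *HKO* replicate 1, and in the other 6 fits the adjusted p was between 0.0552 (without *HKO* replicate 4) and 0.0871 (without WT replicate 1). The livers left out in these 6 fits were WT replicates 1, 2 and 3 and *HKO* replicates 2, 3 and 4, and the log2 fold change over all 8 fits was -1.18 to -0.84. Endothelial cells are a known source of Lipg, and the summed level of 6 endothelial markers (Pecam1, Cdh5, Kdr, Stab2, Clec4g and Lyve1) was 59.7 to 195 CPM in WT and 98.2 to 219.8 CPM in *HKO* livers. Of these 6 markers 5 had a positive log2 fold change, the median was 0.49, and edgeR called 0, with 0 at an unadjusted p under 0.05 and 0 by DESeq2.

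Lipe, hormone-sensitive lipase (chr7:25379527-25395987, minus strand), was 11.1, 16.1, 13.5 and 8.54 CPM in WT replicates 1 to 4 and 7.15, 9.19, 6.65 and 8.17 CPM in *HKO* replicates 1 to 4. The genotypes overlapped through WT replicate 4, which was below *HKO* replicate 2. The mean was 12.3 ± 3.25 CPM (n = 4, SD) in the WT group and 7.79 ± 1.13 CPM (n = 4, SD) in the *HKO* group, and the log2 fold change of -0.66 (SE 0.19, 95% interval -1.08 to -0.25) had an adjusted p of 0.0695. Without WT replicate 4 the adjusted p was 0.023, and DESeq2 gave 0.0285 with all livers. The value was fractional in 8 livers, and 918 of the 5886 exon bases of Lipe, over all its transcripts, are shared with the antisense gene 4732471J01Rik, which was listed at 0.255 to 0.657 CPM. Whether counting used strand is not given in the sources used here. Lipe is best known from adipocytes, and 5 adipocyte genes were listed in the counts, with sums of 3.23 to 7.89 CPM in WT and 4.68 to 6.95 CPM in *HKO* livers. The hormones Lep and Retn were at 0 in all WT livers, and Adipoq did not exceed 0.0698 CPM there, below the floor. Single *HKO* livers reached 2.09 CPM for Lep and 1.42 CPM for Adipoq (replicate 1) and 0.695 CPM for Retn (replicate 2). In *HKO* replicates 3 and 4, Lep and Retn were at 0 and Adipoq did not exceed 0.0851 CPM. Cfd was 0.895 to 6.98 CPM in WT and 0 to 1.28 CPM in *HKO* livers (log2 fold change -2.65, adjusted p = 0.141), and Adrb3 had the other direction (1.18, adjusted p = 0.127). Of the 2 adipocyte genes tested, DESeq2 called 1 higher and 0 lower, beside 8.2% of the genes it tested in either direction. At an unadjusted p under 0.05, edgeR gave 1 higher and 1 lower, beside 2455 of all 12395 tested genes. The part of the adipocyte genes in the Lipe values was not tested.

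Abhd5, the co-activator of the first step (chr9:122351616-122381523, plus strand), was 42.3, 43.3, 38.2 and 37.8 CPM in WT replicates 1 to 4 and 39.1, 33.4, 39.6 and 30.1 CPM in *HKO* replicates 1 to 4. The highest *HKO* livers lay within the WT range and the others below it. The mean was 40.4 ± 2.82 CPM (n = 4, SD) in the WT group and 35.5 ± 4.59 CPM (n = 4, SD) in the *HKO* group, giving a log2 fold change of -0.19 (SE 0.10, adjusted p = 0.355) with a 95% interval of -0.41 to 0.04. The ratio of Mgll to Abhd5 counts within a liver, which does not depend on how libraries are scaled, was 6.45 to 7.75 in WT and 3.47 to 4.50 in *HKO* livers, without overlap. The annotated antisense gene A730085K08Rik overlaps 950 of its 5956 exon bases over all transcripts.

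Pnpla3, a lipid droplet hydrolase known for its link to fatty liver disease (chr15:84167816-84189521, plus strand), had few counts in most livers. It had 54, 8, 11 and 11 counts in WT replicates 1 to 4 and 3, 11, 5 and 2 counts in *HKO* replicates 1 to 4. In CPM this was 4.46, 0.558, 0.547 and 0.723 in WT and 0.202, 0.849, 0.282 and 0.170 in *HKO* livers. WT replicate 1 stood far above every other liver, and *HKO* replicate 2 was above the other 3 WT livers, so the genotypes overlapped. The mean was 1.57 ± 1.93 CPM (n = 4, SD) in the WT group and 0.376 ± 0.319 CPM (n = 4, SD) in the *HKO* group. The log2 ratio of these means was -2.07, and -0.70 without WT replicate 1. With no filter on low counts, edgeR gave an adjusted p of 0.387.

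The liver with the most Pnpla3 also had the most of several genes of lipid synthesis, of which Pnpla3 is a known companion under SREBP1c. Fasn, fatty acid synthase, was 327 CPM in WT replicate 1, where WT replicates 2 to 4 had 89.9 to 186 CPM, and Acly, which supplies acetyl-CoA, was 369 against 149 to 210.3 CPM. Hmgcs1, of cholesterol synthesis, was 1082 against 187 to 319 CPM. Srebf1, which encodes SREBP1, was 60.2 CPM in that liver, inside the range of 47.9 to 69.5 CPM of the other WT livers. *HKO* replicate 2, with the most Pnpla3 among *HKO* livers, also had the most Fasn and Srebf1 of its genotype, at 115 and 88.2 CPM, but not the most Acly, Gpam or Hmgcs1. These are single livers, and the part of WT replicate 1 in the genotype difference of Pnpla3 is shown by the ratio without it.

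**Figure D2:**
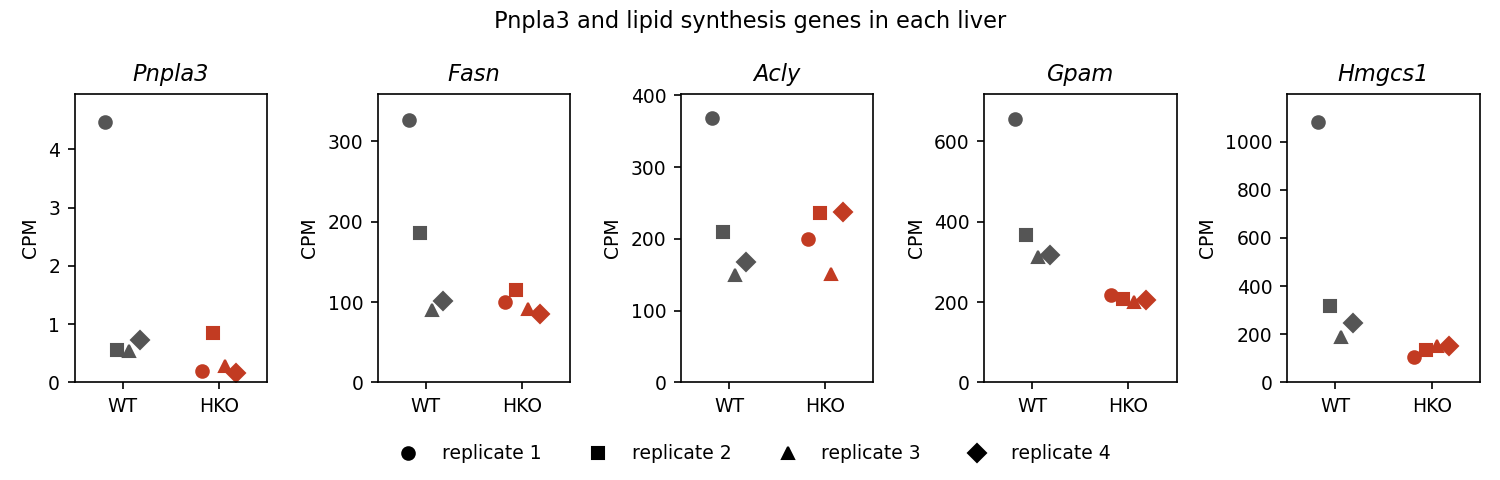
CPM (y axis, linear from 0) of Pnpla3 and of the lipid synthesis genes Fasn, Acly, Gpam and Hmgcs1 in the 4 WT (grey) and 4 *HKO* (red) livers, with the replicate number as the marker shape. WT replicate 1 is the highest liver in every panel, at 4.46 CPM for Pnpla3 and 1082 CPM for Hmgcs1.

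Of the inhibitors, Angptl4 (chr17:33774900-33781575, minus strand), a PPAR target induced by fasting, was 58.8, 74.3, 75.7 and 70.9 CPM in WT replicates 1 to 4 and 80.6, 56.9, 75.6 and 52.7 CPM in *HKO* replicates 1 to 4. The *HKO* livers fell both above and below the WT range. The mean was 69.9 ± 7.70 CPM (n = 4, SD) in the WT group and 66.5 ± 13.7 CPM (n = 4, SD) in the *HKO* group. The fitted log2 fold change was -0.07 (SE 0.14, adjusted p = 0.837), and its 95% interval of -0.38 to 0.24 does not hold a 2-fold change.

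Angptl8 (chr9:21835510-21837347, plus strand), which is induced by feeding and insulin, was 5.46, 5.51, 5.82 and 4.14 CPM in WT replicates 1 to 4 and 6.75, 7.18, 14.4 and 12.7 CPM in *HKO* replicates 1 to 4. Each of the *HKO* livers exceeded the highest WT liver, with *HKO* replicates 1 and 2 just above the WT range and replicates 3 and 4 at over 2 times its top. The mean was 5.23 ± 0.745 CPM (n = 4, SD) in the WT group and 10.2 ± 3.85 CPM (n = 4, SD) in the *HKO* group, giving a log2 fold change of 0.97 (SE 0.25, 95% interval 0.42 to 1.52) with an adjusted p of 0.0509. Across other fits it lay on both sides of the threshold, with 0.00631 by DESeq2, 0.0482 when only genes with at least 10 counts in every liver were kept, 0.0222 without *HKO* replicate 1 and 0.0336 without *HKO* replicate 2, but 0.0973 by limma-voom and up to 0.138 in the fits without 1 liver. Angptl8 lies inside Dock6, which is on the opposite strand and shares 0 of its 865 exon bases. Dock6 was 4.97 to 6.21 CPM in WT and 4.51 to 5.94 CPM in *HKO* livers, with a fitted log2 fold change of -0.11 (adjusted p = 0.758). The ratio of Angptl8 to Angptl4 counts within a liver was 0.0584 to 0.0928 in WT and 0.0837 to 0.241 in *HKO* livers, and overlapped through *HKO* replicate 1.

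**Figure D3:**
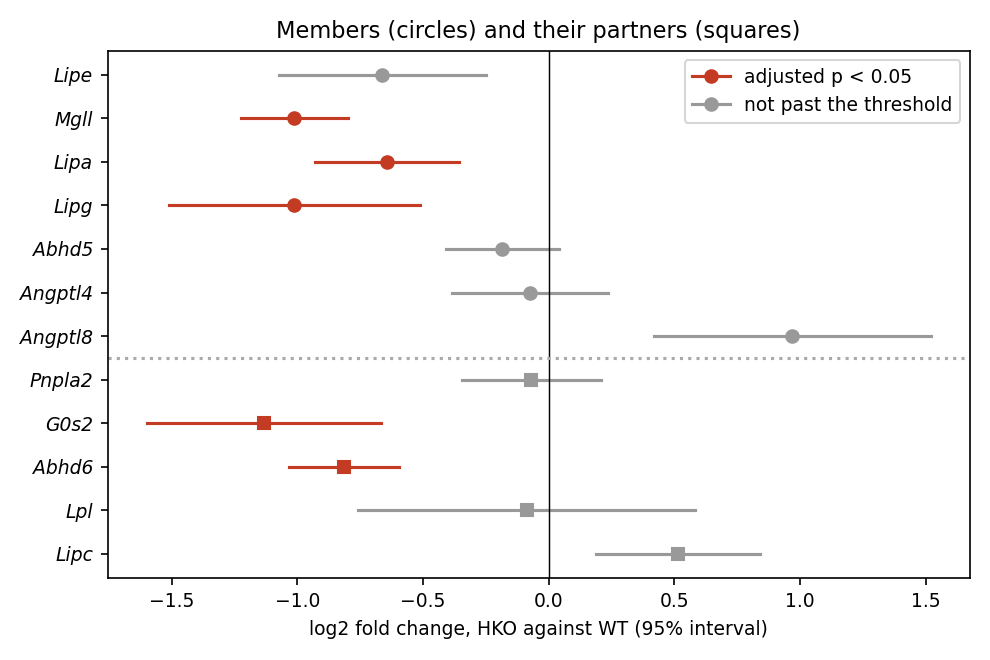
Log2 fold change of *HKO* against WT (x axis, bars are 95% intervals) for the 7 tested genes (circles) and for 5 partners of lipolysis and lipoprotein lipase (squares), red where the adjusted p was under 0.05. Mgll has the narrowest interval among the 3 lipases called, and the interval of Angptl8 lies wholly above 0 although its adjusted p was 0.0509.

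The partners of the first step moved unequally. Pnpla2, the triglyceride lipase that ABHD5 activates, was 38.4 ± 7.20 CPM (n = 4, SD) in the WT group and 36.6 ± 2.67 CPM (n = 4, SD) in the *HKO* group, giving a log2 fold change of -0.07 (adjusted p = 0.825). Its inhibitor G0s2 was 56.1, 87.4, 83.1 and 56.7 CPM in WT replicates 1 to 4 and 37.8, 24.9, 39.4 and 26.9 CPM in *HKO* replicates 1 to 4. No *HKO* liver reached the lowest WT liver, and the log2 fold change of G0s2 was -1.13 (SE 0.21, adjusted p = 0.0181), a call that did not hold in the fits lacking WT replicate 2 or *HKO* replicate 4. The ratio of G0s2 to Pnpla2 counts was 1.39 to 2.23 in WT and 0.630 to 1.19 in *HKO* livers, without overlap. Hilpda, a second inhibitor of Pnpla2, was low, at 1.07 to 1.81 CPM in WT and 0.772 to 1.69 CPM in *HKO* livers, with a fitted log2 fold change of -0.05 (adjusted p = 0.959).

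Over a list of 20 further genes of intracellular lipolysis, all tested, 5 were called lower and 0 higher by edgeR, with a median log2 fold change of -0.28. Of all tested genes, 3.37% were called lower and 1.66% higher. At an unadjusted p under 0.05 there were 8 lower and 2 higher, beside 2455 of all 12395 tested genes in either direction. DESeq2 called 7 lower and 0 higher, beside 8.2% of the genes it tested in either direction. Besides G0s2, the genes called were Abhd6, Ces1d, Fabp1 and Gk. Abhd6, a second monoacylglycerol hydrolase, fell from 44.6 ± 3.80 CPM (n = 4, SD) to 25.4 ± 2.80 CPM (n = 4, SD), a log2 fold change of -0.82 (adjusted p = 0.00156), as Mgll did. Ces1d, a carboxylesterase that hydrolyses triglyceride, had a fitted log2 fold change of -0.73 (adjusted p = 0.0101), and Fabp1, which binds fatty acids in the cytosol, of -0.70 (adjusted p = 0.0364). Without WT replicate 2 or without *HKO* replicate 4, 3 genes of the list were called, and G0s2 and Fabp1 were not. Over the 8 fits that each lacked a liver, Fabp1 was called in 2, those lacking WT replicate 3 or *HKO* replicate 3, and Abhd6, Ces1d and Gk in 8.

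Lipoprotein lipase itself did not differ beyond its spread: Lpl was 26.6 ± 3.95 CPM (n = 4, SD) in the WT group and 24.9 ± 11.05 CPM (n = 4, SD) in the *HKO* group, giving a log2 fold change of -0.09 (95% interval -0.76 to 0.58, adjusted p = 0.911). Hepatic lipase (Lipc), of the same family as Lpl and Lipg, was 91.8 ± 10.4 CPM (n = 4, SD) in the WT group and 131.2 ± 29.6 CPM (n = 4, SD) in the *HKO* group, giving a log2 fold change of 0.51 that did not pass the threshold (adjusted p = 0.0768) and overlapped narrowly. Its direction was thus opposite to that of Lipg. Gpihbp1, the capillary anchor of lipoprotein lipase, had a fitted log2 fold change of 0.33 (adjusted p = 0.714). Of 14 genes of lipoprotein lipase control, edgeR called 2 lower and 0 higher, with a median of -0.10. Of all tested genes it called 3.37% lower and 1.66% higher. There were 3 lower and 1 higher of the 14 at an unadjusted p under 0.05, beside 2455 of all 12395 tested genes. Those called were Apoc2, the cofactor that lipoprotein lipase needs, with a fitted log2 fold change of -0.87 (adjusted p = 0.0101), and Pcsk6, a proprotein convertase, with -0.59 (adjusted p = 0.0109). DESeq2 called 3 lower and 1 higher, the latter Lipc, beside 8.2% of the genes it tested in either direction.

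Among 15 transcription factors and cofactors known to act on these genes, edgeR called 2 lower and 0 higher, with a median log2 fold change of 0.10. Of all tested genes it called 3.37% lower and 1.66% higher. Pparg, a nuclear receptor that drives lipid storage genes, was 19.6 ± 2.47 CPM (n = 4, SD) in the WT group and 8.20 ± 2.63 CPM (n = 4, SD) in the *HKO* group, giving a log2 fold change of -1.25 (adjusted p = 0.00977). Ppara, the nuclear receptor of the fasting response, had a fitted log2 fold change of -0.33 (adjusted p = 0.0358), and was called in 1 of the 8 fits without 1 liver. At an unadjusted p under 0.05 there were 4 lower and 2 higher in this list, beside 2455 of all 12395 tested genes. DESeq2 called 2 lower and 0 higher, beside 8.2% of the genes it tested in either direction.

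Of 16 known PPAR targets, 11 were called lower and 0 higher by edgeR, and the median was -1.07. Angptl4, itself a PPAR target, is not in this list and did not share the decrease (log2 fold change -0.07, adjusted p = 0.837). Of all tested genes, 3.37% were called lower and 1.66% higher. There were 12 lower and 0 higher of the 16 at an unadjusted p under 0.05, beside 2455 of all 12395 tested genes. DESeq2 called 11 lower and 0 higher, beside 8.2% of the genes it tested in either direction. The largest decreases among those called were of the lipid droplet protein gene Cidec (log2 fold change -4.60, adjusted p = 0.025), the hormone gene Fgf21 (-2.30, adjusted p = 0.0184), the thioesterase gene Acot2 (-2.20, adjusted p = 0.0187) and the kinase gene Pdk4 (-2.15, adjusted p = 0.0145). Without WT replicate 2, which had the most Cidec, Fgf21, Acot2 and Pdk4, 7 of the 16 were called. Over the 8 fits lacking a liver, Cidec was called in 4 (not without WT replicates 1, 2 or 3 or *HKO* replicate 2), Acot2 in 6 (not without WT replicate 1 or *HKO* replicate 4), Fgf21 in 7 (not without WT replicate 2) and Pdk4 in 7 (not without *HKO* replicate 4). Of 14 genes listed as targets of SREBP1c or ChREBP, 14 had a negative log2 fold change, with a median of -0.49. Angptl8 and Pnpla3, known to belong to this class, were kept out of the list. Gpam (-0.995) and Insig2 (-0.63) were called lower and 0 higher, beside 3.37% lower and 1.66% higher of all tested genes. Whether Insig2 answers to these factors was not tested. Of the 14, 4 were lower and 0 higher at an unadjusted p under 0.05, beside 2455 of all 12395 tested genes. DESeq2 called 3 of the 14 lower and 0 higher, beside 8.2% of the genes it tested in either direction. Between 0 and 2 of the 14 were called when single livers were left out, with 0 when the left-out liver was WT replicate 2 or *HKO* replicate 4. Angptl8 had the opposite sign.

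**Figure D4:**
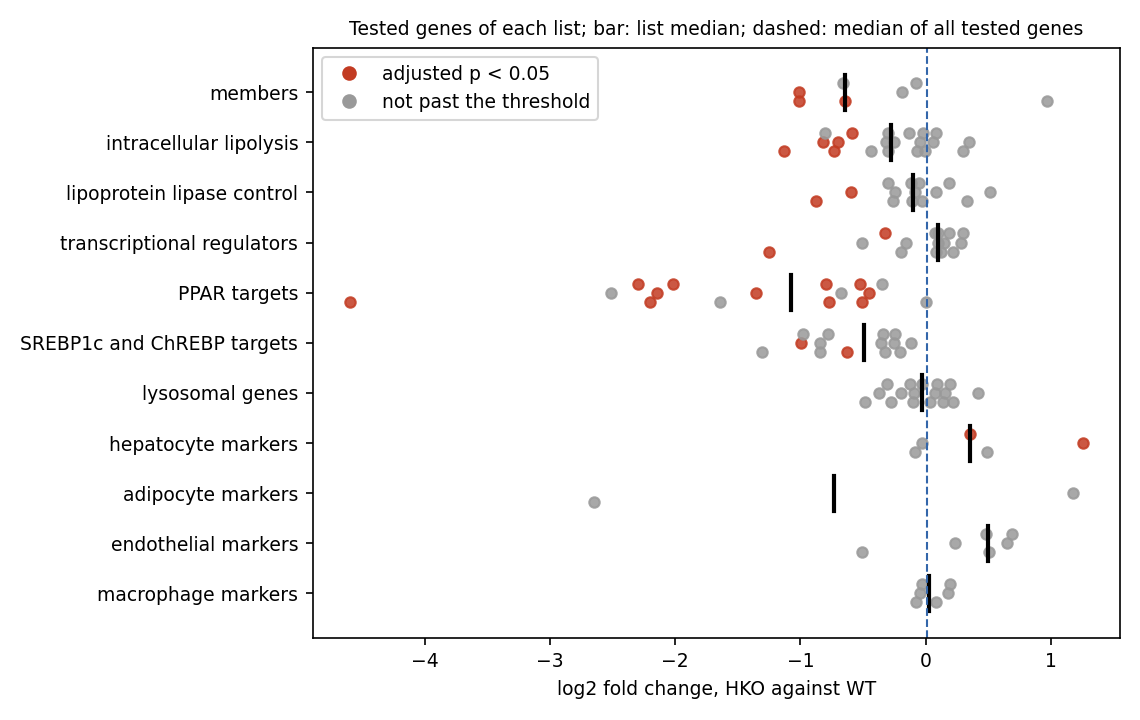
Log2 fold change of *HKO* against WT (x axis) of every tested gene in each list (y axis), red where the adjusted p was under 0.05, with the median of each list as a black bar and that of all tested genes as a dashed line. The PPAR targets reach furthest to the left, with a median of -1.07, and the lysosomal genes lie around 0 with a median of -0.03.

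Hepatocyte markers were abundant in every liver, with Alb at 62295 to 96088 CPM in WT and 47064 to 98815 CPM in *HKO* livers. Of 5 such markers, Hnf4a (log2 fold change 0.36, adjusted p = 0.0406) and Cps1 (1.26, adjusted p = 0.00433) were called higher in *HKO* livers. Apoa1 (0.49, adjusted p = 0.155), Ttr (-0.08, adjusted p = 0.803) and Alb (-0.03, adjusted p = 0.967) were not called. Of all tested genes, 1.66% were called higher. Hnf4a was called in 1 of the 8 fits lacking a liver, the one lacking *HKO* replicate 3, and not under total count scaling or with the replicate block, while Cps1 was called in all of these. The summed level of 6 macrophage markers was 84.2 to 185 CPM in WT and 63.8 to 177 CPM in *HKO* livers, and that of 5 stellate cell markers was 382 to 455 CPM and 329 to 492 CPM. Of 4 cholangiocyte markers, Krt19 and Epcam stood at 16.9 and 16.5 CPM in *HKO* replicate 2 and at most at 1.07 CPM in the other livers. Krt7 was also highest in *HKO* replicate 2, at 3.32 CPM. Sox9 was instead highest in *HKO* replicate 3, at 15.5 CPM against 7.87 CPM in *HKO* replicate 2. Without *HKO* replicate 2 Mgll and Lipa stayed called, while the adjusted p of Lipg was 0.0775. Without *HKO* replicate 3 Mgll and Lipa also stayed called, and the adjusted p of Lipg was 0.0722. Of the macrophage, stellate and cholangiocyte markers tested, edgeR called 0, with 0 at an unadjusted p under 0.05 and 0 by DESeq2. The part of these markers in the lipase differences was not tested.

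Levels of different genes were compared per length, as CPM per kilobase of exon of their protein-coding transcripts (3259 bases for Abhd5, against 5956 bases over all its annotated transcripts). In WT livers the order of the mean levels was Lipa (128 ± 20.7 CPM per kilobase, SD, n = 4), Mgll (58.1 ± 7.97), Angptl4 (21.1 ± 2.33), Abhd5 (12.4 ± 0.866), Angptl8 (6.05 ± 0.861), Lipg (5.39 ± 1.36), Lipe (2.14 ± 0.565) and Pnpla3 (1.20 ± 1.47). Neighbours in this order did not overlap between WT livers, except Angptl8 with Lipg and Lipe with Pnpla3. With the exons of all annotated transcripts, a choice added after the values were seen, the order was the same, but Lipa (46.3 to 64.9 CPM per kilobase) then overlapped Mgll (48.9 to 66.1) and Abhd5 (6.35 to 7.28) overlapped Angptl8 (4.79 to 6.73). In *HKO* livers the mean level per kilobase was 82.0 ± 11.4 for Lipa, 28.8 ± 1.22 for Mgll, 20.1 ± 4.15 for Angptl4, 10.9 ± 1.41 for Abhd5, 11.8 ± 4.46 for Angptl8, 2.67 ± 0.718 for Lipg, 1.36 ± 0.196 for Lipe and 0.286 ± 0.243 for Pnpla3 (n = 4, SD). Angptl8 and Lipg, which overlapped in WT livers, were apart in *HKO* livers, at 7.80 to 16.6 and 1.82 to 3.56 CPM per kilobase.

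**Figure D5:**
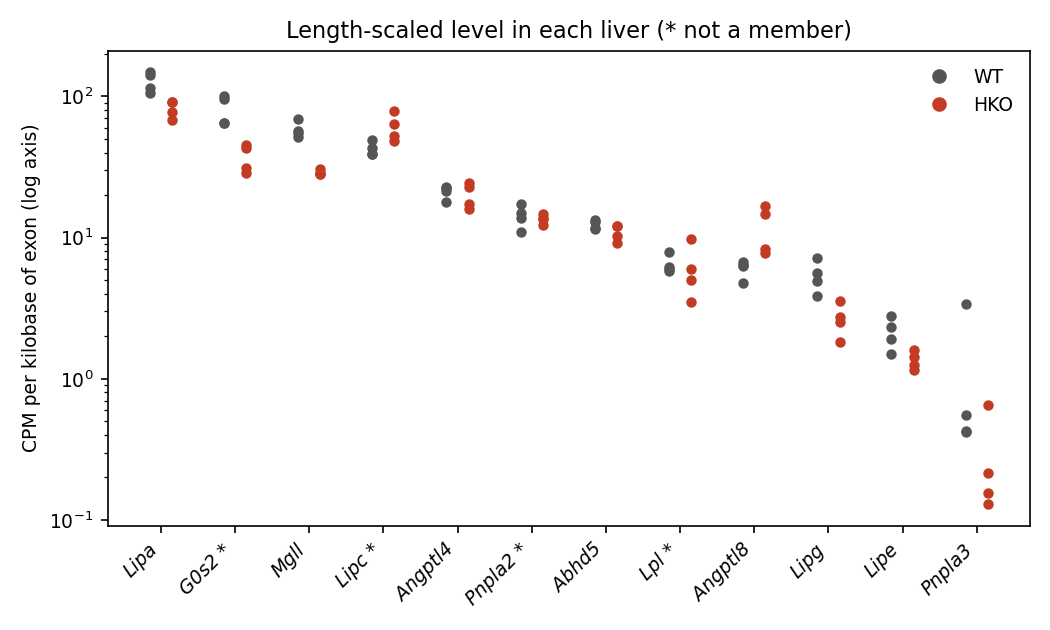
CPM per kilobase of exon (y axis, log scale) of the 8 genes and of 4 partners marked with an asterisk (x axis, ordered by WT mean) in each WT (grey) and *HKO* (red) liver. Lipa and Mgll are the most abundant of the 8 genes in both genotypes, and Pnpla3 and Lipe the least.

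Across the 8 livers Mgll and Lipa varied together, with a Pearson r of 0.876 on the log2 CPM scale, and 0.349 after the mean of each genotype was subtracted. Mgll and Angptl8 had an r of -0.719, and 0.229 after subtraction. Abhd5 and Angptl4 had an r of 0.646, which was 0.664 after subtraction. These values are descriptions over 8 livers of 2 genotypes, and the genes of a liver share its library and depth. Each gene was also set against 11877 other tested genes with a mean of at least 1 CPM, without subtracting genotype means. The r values printed are the highest of 11877 over 8 livers, so they are high by selection. The patterns most like that of Mgll were those of Slc25a20 (r = 0.994), the mitochondrial carnitine-acylcarnitine carrier, Ifi27l2b (r = 0.989) and Acaa1a (r = 0.987), a peroxisomal thiolase. For Lipa they were Ralgps2 (r = 0.986), Fkbp1a (r = 0.984) and Bod1 (r = 0.982), and for Lipg Tppp (r = 0.963), 5031439G07Rik (r = 0.961) and Lgals8 (r = 0.961). For Angptl8 they were Epb41l4b (r = 0.976), Asxl1 (r = 0.971) and Prpf18 (r = 0.966). For Lipe the nearest was Tmem189 (r = 0.997), for Abhd5 Zfp810 (r = 0.986) and for Angptl4 Fnbp1l (r = 0.966).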

How the data were processed

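RNA-Seq was done on the livers of 4 WT and 4 *HKO* mice. The authors deposited estimated counts per gene (expectation-maximization in Partek, with no normalization), and the submitters' processing notes also name STAR, with versions not given in the sources used here. The labels name both rRNA depletion and a small RNA kit, so the type of library is uncertain. Of the values 87.7% were whole within 0.01, 3247 genes had a fractional value, and 0 columns were left unmapped. The description labels of the WT livers begin with the same mouse number while their titles differ, and columns were matched by title. Coordinates are GRCm38, with the last base taken as 1 before the listed stop, since 65.3% of 17767 symbols then ended as in RefSeq.

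Counts were rounded and tested with edgeR 4.0.16 in R 4.3.3 (TMM scaling, its expression filter with a minimum count of 10, robust quasi-likelihood test) for genotype, with Benjamini-Hochberg adjustment over 12395 genes. SEs are the absolute log2 fold change over the square root of F. A prior count of 2 was added for log2 CPM. The fit was repeated with limma-voom (limma 3.58.1), DESeq2 1.42.0, other scalings and filters, edgeR's legacy method, a replicate block and each liver left out in turn. Fits were tested on simulated data. Replicate numbers were taken from the labels and belong to different mice, and deviations of livers with the same number correlated between -0.148 and 0.0116, so they were not treated as pairs. Exon lengths and 3′UTRs came from GENCODE vM21, and seed and motif searches used Python 3.11.15.

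Named were the 8 genes, up to 4 called genes per list by size of change, their direct partners and, for likeness, the top 3 genes by r; Fasn, Acly, Hmgcs1, Srebf1, Dock6, overlapping genes and single markers were added after their values were seen. A gene that the rule names is not reported here. The 8 genes, the lists and the tests were chosen with earlier results of these data known, so that they are no independent support.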

Additional observations from a re-analysis of the deposited data

Results flagged for a closer look

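Among 16 groups of 4 livers (the 8 genes in each genotype), 3 held a liver flagged by Dixon's outlier test. The test sets the gap to the nearest other liver, over the range of the group, against a critical value for 4 livers. At that critical value, chance gives about 1 in 20 groups. Smaller gaps were not flagged, even where they took up most of the range, as for Angptl8 in WT replicate 4. Pnpla3 in WT replicate 1 was 4.46 CPM, where the other WT livers had 0.547 to 0.723 CPM, a gap of 0.955 of the range. Pnpla3 in *HKO* replicate 2 was 0.849 CPM against 0.170 to 0.282 CPM in the other *HKO* livers, a gap of 0.836 of the range that rests on 11 counts. Mgll in *HKO* replicate 3 was 148 CPM against 135 to 137 CPM in the other *HKO* livers, a gap of 0.839 of a narrow range. Without that liver Mgll was still called.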

How the results depend on the processing

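The count of genes called lower, 3 in the comparison as reported, was 3 with every other scaling, filter and model tried except DESeq2, which gave 4 by adding Lipe, and 1 to 4 when a liver was left out. With WT replicate 1 or WT replicate 2 left out it was 1 (Mgll). The count called higher, 0, was 1 (Angptl8) with DESeq2 and with at least 10 counts in every liver, and 0 to 1 when a liver was left out. Genes with *HKO* wholly below WT numbered 3, and 3 to 5 when a liver was left out, with 5 without *HKO* replicate 2 (Lipe and Pnpla3 added). The count wholly above was 1 throughout. Leaving out a liver can only keep or raise these counts, so the values without 1 liver do not test how firm they are. The log2 fold change of Angptl4, -0.07, was -0.18 to 0.024 when a liver was left out, with 0.024 without *HKO* replicate 4. Over all genes, 624 were called as reported, 1014 by DESeq2 and 212 to 598 without 1 liver; 206 of the 624 were higher, against 119 of 740 under total count scaling, where the median log2 fold change was -0.08. The causes of these differences were not tested. With the replicate block, 3 genes were called lower, 0 higher and 456 over all genes, and Mgll (adjusted p = 0.00329), Lipa (0.0333) and Lipg (0.00965) stayed called. Low counts limit what can be said of Pnpla3.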
